A study of Mus musculus with 29 samples.

Results

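Emx1, Emx2, Lhx2, Dmrta1, Dmrta2, Dmrt3, Nr2f1, Nr2f2, Prox1 and Zbtb20 are 10 transcription factor genes that pattern the medial pallium and the areas of the cortex, or that mark the hippocampus formed there. They were chosen by name for these roles, out of 38355 genes in the RNA-seq tables of untreated embryos and 48709 genes in those of treated embryos, and all 10 passed the filter on low counts in both experiments. The study deleted BAF155 (Smarcc1) and BAF170 (Smarcc2), core subunits of the BAF chromatin remodeling complex, with a Cre driven by the human GFAP promoter (dcKO). All embryos were mice of strain C57BL/6J at E17.5, and the tissue is labelled embryonic cortex. RNA-seq covered 5 groups, namely 4 untreated controls (letter C in the sample names), 3 untreated embryos labelled dcKO (letter M), 4 wild-type and 4 dcKO embryos whose mothers received vehicle, and 4 dcKO embryos whose mothers received the Wnt inhibitor ICG-001. ChIP-seq for H3K27me3 covered 4 controls (letter C) and 4 embryos labelled dcKO (letter K). By the study's methods the untreated controls were littermates that also carried the Cre and were heterozygous for both floxed alleles, so a partial deletion and the Cre were shared by all untreated and ChIP-seq embryos. The genotype field of the untreated and ChIP-seq samples reads dcKO for every sample, so the letter alone sets their groups. This Cre recombines in radial glia of the medial pallium before it does so in the dorsal and lateral pallium, and the dissected tissue holds other cells in which it does not act, such as interneurons and vessels.

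The medial edge of the pallium forms the cortical hem, a signaling center that secretes Wnt and Bmp ligands and induces the hippocampus beside it. Graded factors set the response of the neighboring neuroepithelium. Emx2 and the DM-domain factor Dmrta2 are strongest medially and caudally, Lhx2 keeps cortical precursors from becoming hem, and the nuclear receptors Nr2f1 and Nr2f2 specify caudal areas. Prox1 later marks dentate granule neurons, and Zbtb20 specifies hippocampal pyramidal neurons. H3K27me3 is the histone mark of Polycomb repression, and CpG-rich promoters of developmental regulators commonly carry it.

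Promoter windows from RefSeq (GRCm38.p6, the mm10 assembly, 300 bases per start) matched all 10 genes with 13 windows. The 250 bases before a start are printed for 4 genes that span the range of CpG content and of H3K27me3, each 5′ to 3′ in lower case with every CpG in capitals.
Lhx2, chr2:38339031-38339280, plus strand: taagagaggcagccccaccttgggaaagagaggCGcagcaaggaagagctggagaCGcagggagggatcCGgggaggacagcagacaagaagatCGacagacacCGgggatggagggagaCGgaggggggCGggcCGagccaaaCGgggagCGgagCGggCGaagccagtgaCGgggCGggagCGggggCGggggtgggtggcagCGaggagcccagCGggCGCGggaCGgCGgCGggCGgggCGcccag
Dmrta2, chr4:109977775-109978024, plus strand: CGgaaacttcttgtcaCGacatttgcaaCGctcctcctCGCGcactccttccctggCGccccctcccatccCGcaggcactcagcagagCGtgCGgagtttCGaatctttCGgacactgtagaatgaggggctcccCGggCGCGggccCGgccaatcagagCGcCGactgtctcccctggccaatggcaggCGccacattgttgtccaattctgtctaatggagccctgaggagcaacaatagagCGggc
Nr2f2, chr7:70366747-70366996, minus strand: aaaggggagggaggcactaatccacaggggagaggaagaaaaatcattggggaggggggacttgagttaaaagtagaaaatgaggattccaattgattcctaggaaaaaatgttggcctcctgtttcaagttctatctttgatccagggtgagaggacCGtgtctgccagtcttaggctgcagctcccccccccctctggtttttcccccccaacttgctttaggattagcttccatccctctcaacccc
Zbtb20, chr16:43247034-43247283, plus strand: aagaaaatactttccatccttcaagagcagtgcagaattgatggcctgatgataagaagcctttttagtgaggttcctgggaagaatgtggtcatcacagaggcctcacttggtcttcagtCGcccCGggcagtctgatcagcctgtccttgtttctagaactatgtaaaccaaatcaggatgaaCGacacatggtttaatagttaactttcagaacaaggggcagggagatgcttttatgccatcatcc
The Lhx2 and Dmrta2 stretches hold 25 and 19 CpG, and the Nr2f2 and Zbtb20 stretches hold 1 and 3, against a median of 6 (quartiles 2 and 16) over all 32851 windows. The Zbtb20 stretch lies before a RefSeq start inside the gene, far from the annotated start at chr16:42875881, and does not describe that start. H3K27me3 peaks lay over the Dmrta2 stretch in 3 C and 3 K libraries, over that of Nr2f2 in 3 and 3, over that of Lhx2 in 1 and 1, and over that of Zbtb20 in 0 and 0. The CpG-poor Nr2f2 stretch was thus under peaks as often as the CpG-rich Dmrta2 stretch. The core motif of the Wnt effectors TCF and LEF, spelled CTTTGAA, or alternatively CTTTGAT, or alternatively CTTTGTA, or alternatively CTTTGTT, was searched on both strands of the 300-base windows. It stood in 2 of the 13 windows, one of Nr2f2 and one of Nr2f1, and in 16.9% of all windows.

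The untreated libraries held between 11946658 and 28391046 reads counted on genes, and the treated libraries between 12514443 and 26600594. Smarcc1 was at 247, 264, 269 and 248 CPM (counts per 1e6 counted reads, scaled by TMM) in untreated C replicates 1 to 4 and at 245, 128 and 135 CPM in M replicates 2 to 4. In the treated experiment it was at 245, 266, 299 and 256 CPM in WT vehicle, at 136, 242, 133 and 138 CPM in dcKO vehicle, and at 214, 252, 139.8 and 173 CPM in dcKO Wnt inhibitor libraries. The libraries labelled untreated M replicate 2, dcKO vehicle replicate 2 and dcKO Wnt inhibitor replicates 1 and 2 were thus over 200 CPM, near the control level, which goes against their label. Smarcc2 was likewise at 669.9 CPM in M replicate 2 and 692 CPM in dcKO vehicle replicate 2, against 398 to 439 CPM in the other libraries of those groups. With the inhibitor Smarcc2 was at 644, 695, 416 and 586 CPM in replicates 1 to 4, so replicate 4, which had Smarcc1 at 173 CPM, was also above the other libraries labelled dcKO that had a low level. The fits without the libraries over 200 CPM of Smarcc1 still hold that replicate. Which exons the deletion removes from these transcripts is not seen in gene counts. Same-numbered libraries of the untreated and vehicle groups also deviated from their group means together, with a correlation across 12475 genes between 0.19 and 0.91 for the 7 same-numbered pairs and a mean of -0.17 for the 21 others, and each untreated library correlated best with its own number. Centring on group means lowers the other pairs where same-numbered pairs are positive, so their mean is no separate contrast. In the other direction, WT vehicle replicate 1 correlated more with untreated C replicate 2 (0.24) than with C replicate 1 (0.19). The labels do not say that the experiments share embryos, but their results cannot be taken as independent. Markers of pallial neurons and radial glia were present in every library, and no gene of the marker lists was under 0.1 CPM in all libraries of a group.

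Per kb of exon, the genes fell into a wide range of levels. In untreated controls the mean level was 38.2 CPM per kb for Nr2f1, 38.0 for Lhx2, 15.7 for Nr2f2, 12.3 for Zbtb20, 10.9 for Emx2, 9.90 for Emx1, 7.31 for Prox1, 2.03 for Dmrta2, 1.08 for Dmrt3 and 0.237 for Dmrta1. In this order the 4 libraries of neighboring genes overlapped in their range except between Lhx2 and Nr2f2, between Prox1 and Dmrta2 and between Dmrt3 and Dmrta1. In WT vehicle cortex Nr2f1 (48.7 CPM per kb) and Lhx2 (44.8) again led, and Dmrt3 (1.29) and Dmrta1 (0.229) were again lowest. The exon length used for Zbtb20, 30730 bp over all its transcripts, lowers its value on this scale. The 2 experiments were counted on different gene sets, and levels were not compared between them.

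**Figure D1:**
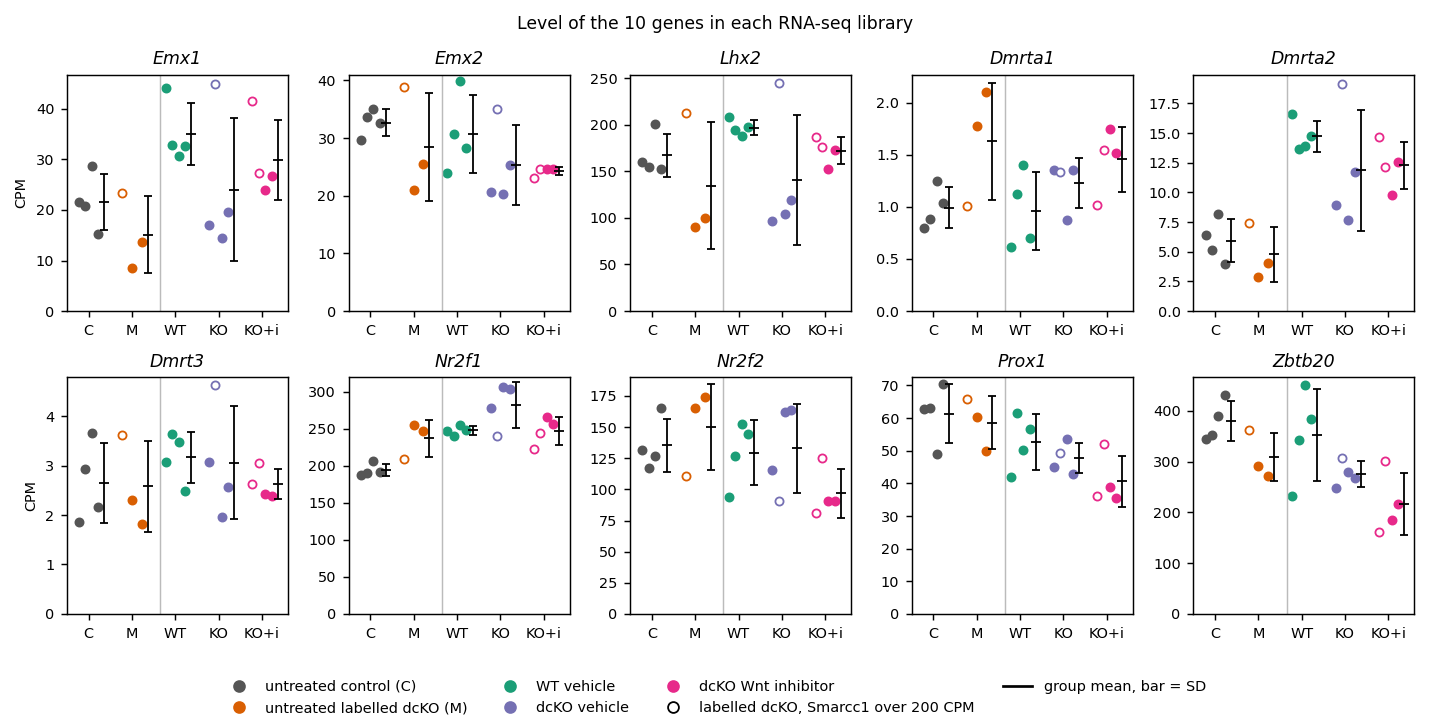
CPM of each gene (y axes, from 0) in every RNA-seq library of the 5 groups (x axes; C and M untreated, WT vehicle, KO is dcKO vehicle, KO+i is dcKO with Wnt inhibitor), with the group mean and SD in black. Open circles are libraries labelled dcKO with Smarcc1 over 200 CPM, where Lhx2 was at 213 CPM (untreated) and 245 CPM (vehicle) against 90.1 to 119 CPM in the other libraries of those groups.

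The comparison of untreated dcKO with control embryos asks which genes depend on the BAF complex. None of the 10 genes passed the test at an adjusted p under 0.05 in the untreated comparison, where 0.00634% of all 15770 genes did in edgeR, and 1 of 10 was under an unadjusted p of 0.01 (Nr2f1), where 5.46% of all genes were. Of the 10, 1 gene (Nr2f1) had groups that did not overlap, against 13.2% of all genes. The median log2 fold change of the 10 genes was -0.16, and that of all genes was 0.00. M replicate 2 was singled out by its Smarcc1 level after the data were seen, and a fit without it holds only M replicates 3 and 4. With M replicate 2 left out, 5 of 10 passed at an adjusted p under 0.05, 3 lower (Lhx2, Emx2 and Zbtb20) and 2 higher (Nr2f1 and Dmrta1), where 12.4% of all genes passed, 6.88% lower and 5.57% higher. In that fit 6 of 10 were under an unadjusted p of 0.01, where 14.6% of all genes were.

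Between dcKO and WT embryos under vehicle, 0 of 10 genes passed, where 0.00611% of all 16372 genes did, and 0 of 10 were under an unadjusted p of 0.01, where 2.85% of all genes were. All 10 had overlapping groups, against 5.66% of all genes that did not overlap. Without dcKO vehicle replicate 2, likewise singled out by Smarcc1, Emx1 and Lhx2 passed, both lower, where 3.4% of all genes did, 2.06% lower. With inhibitor replicates 1 and 2 also out of the fit, a choice made after the data were seen, Dmrta2 passed as well, lower, where 5.82% of all genes did, 3.34% lower, and 4 of 10 were under an unadjusted p of 0.01, where 9.09% of all genes were. The dcKO effect in the vehicle experiment minus that in the untreated experiment passed for 0 of 10 genes and for 0% of all 16156 genes tested in edgeR, with log2 differences between -0.34 and 0.07 for the 10 genes. This fit took all 19 libraries as independent, although same-numbered libraries of the untreated and vehicle groups deviated together, so its p-values do not account for that. At an unadjusted p under 0.01 there were also 0 of the 10 and 0.099% of all genes, and DESeq2 gave 0 of the 10 as well.

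The inhibitor comparison asks whether blocking Wnt signaling in dcKO embryos changes expression, and it uses the same dcKO vehicle libraries. Of the 10 genes, 0 passed, where 0.055% of all genes did, and 0 were under an unadjusted p of 0.01, where 4.65% were. None had groups that did not overlap, against 8.51% of all genes. Without dcKO vehicle replicate 2, Lhx2 passed, higher with the inhibitor, where 1.09% of all genes did, 0.635% higher. Without inhibitor replicates 1 and 2 as well, Lhx2 again passed, where 1.02% of all genes did, 0.303% higher, and 3 of 10 were under an unadjusted p of 0.01, where 7.2% were. Against WT vehicle, 0 of 10 passed, where 0.0977% of all genes did, and 1 (Zbtb20) was under an unadjusted p of 0.01, where 6.72% were. Without the dcKO libraries over 200 CPM of Smarcc1, Zbtb20 passed, where 7.38% of all genes did, 4.72% lower, and it was the 1 gene of 10 under an unadjusted p of 0.01, where 11.9% were. Lhx2 alone had groups that did not overlap in that comparison, against 7.49% of all genes.

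**Figure D2:**
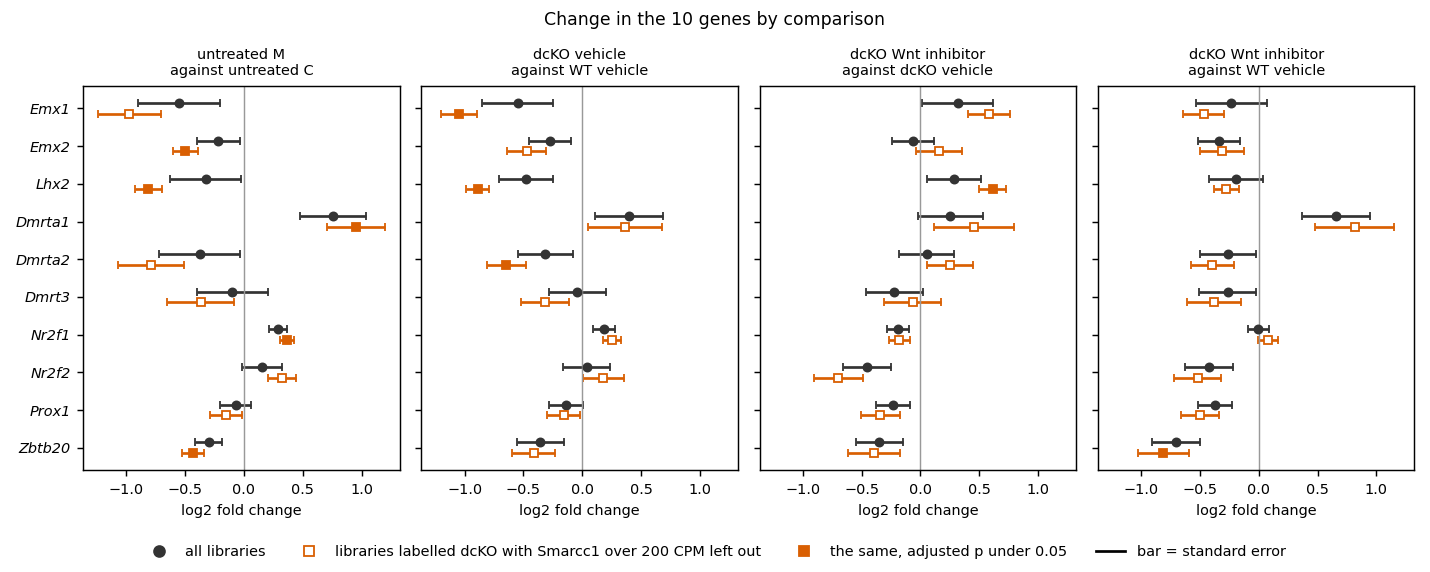
Log2 fold change (x axes) with its standard error (bars) of each gene in 4 comparisons, with all libraries (black circles) and without the libraries labelled dcKO that had Smarcc1 over 200 CPM (orange squares, filled where the adjusted p was under 0.05). Lhx2 moved from -0.33 to -0.81 in the untreated and from -0.48 to -0.89 in the vehicle comparison when those libraries were left out.

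Lhx2, a LIM-homeodomain factor that maintains cortical identity, differed between those libraries and the others of their groups. In untreated embryos it was at 160.4, 155, 201 and 152 CPM in C and at 213, 90.1 and 100.1 CPM in M replicates 2, 3 and 4. M replicate 2 stood above every control, and the other M libraries stood below every control. The means were 134 ± 68.2 CPM (SD, n = 3) in M and 167 ± 22.8 CPM (SD, n = 4) in C, and the log2 fold change of -0.33 (SE 0.31) had an adjusted p of 0.65 in edgeR. Without M replicate 2 it was -0.81 (SE 0.11, adjusted p = 0.0019). Under vehicle, Lhx2 was at 208, 194, 188 and 197 CPM in WT and at 96.6, 245, 104 and 119 CPM in dcKO. Again replicate 2 stood above and the other dcKO libraries below every WT library, with a log2 fold change of -0.48 (SE 0.23, adjusted p = 0.54) with all libraries and of -0.89 (SE 0.10, adjusted p = 0.0019) without replicate 2. In dcKO embryos with the inhibitor it was at 187, 176, 152 and 173 CPM, below every WT library and between the dcKO vehicle libraries 2 and 4. The difference from dcKO vehicle was 0.29 (SE 0.23, adjusted p = 0.56) with all libraries, and 0.69 (SE 0.10, adjusted p = 0.018) without dcKO vehicle replicate 2. It was 0.61 (SE 0.11, adjusted p = 0.039) with inhibitor replicates 1 and 2 left out as well. The sum of 5 pallial neuron markers moved with Lhx2, at 2369 CPM in M replicate 2, 1197 and 1337 CPM in M replicates 3 and 4 and 1793 to 2313 CPM in C, and the sum of 8 GABAergic interneuron markers moved against it, at 358 CPM in M replicate 2, 661 and 603 CPM in M replicates 3 and 4 and 442 to 543 CPM in C. Their part in the result was not tested. In bulk tissue, fewer cells that express a gene and less RNA per cell cannot be told apart.

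Emx1 and Emx2 encode homeodomain factors of the dorsal telencephalon, and Emx2 is needed for growth of the hippocampus. Emx1 was at 21.6, 20.8, 28.7 and 15.3 CPM in untreated C and at 23.3, 8.48 and 13.6 CPM in M. M replicate 2 lay within the control range and the others below it, with a log2 fold change of -0.55 (SE 0.35, adjusted p = 0.49), and of -0.98 (SE 0.27, adjusted p = 0.054) without replicate 2. With vehicle, Emx1 was at 44.1, 32.8, 30.6 and 32.7 CPM in WT, and at 17, 44.9, 14.4 and 19.5 CPM in dcKO. Replicate 2 was the highest of these 8 libraries, and the other dcKO libraries were below every WT library. The log2 fold change was -0.55 (SE 0.30, adjusted p = 0.61), and without replicate 2 it was -1.05 (SE 0.20, adjusted p = 0.014). With the inhibitor Emx1 was at 41.5, 27.3, 23.9 and 26.8 CPM, all above dcKO vehicle replicates 1, 3 and 4, and the difference from dcKO vehicle was 0.32 (SE 0.30, adjusted p = 0.64), and 0.81 (SE 0.20, adjusted p = 0.063) without dcKO vehicle replicate 2.

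Emx2 had a smaller range. It was at 29.6, 33.6, 35.0 and 32.6 CPM in untreated C and at 38.9, 20.9 and 25.4 CPM in M, so M replicate 2 was above and the other M libraries below all controls. The log2 fold change of -0.22 (SE 0.18, adjusted p = 0.61) became -0.50 (SE 0.10, adjusted p = 0.012) without that library. Under vehicle, Emx2 was at 23.9, 30.7, 39.9 and 28.3 CPM in WT and at 20.7, 35.0, 20.3 and 25.4 CPM in dcKO, with overlapping groups (-0.27, SE 0.18, adjusted p = 0.71). With the inhibitor it was at 23.1, 24.6, 24.7 and 24.6 CPM, within the dcKO vehicle range. The antisense transcript Emx2os overlaps Emx2, and reads of the 2 could not be told apart by strand in this kit. Emx2os was itself counted at 4.58 to 7.72 CPM and had no test with an adjusted p under 0.05.

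Dmrta2, Dmrt3 and Dmrta1 encode DM-domain factors of the medial pallium, and loss of Dmrta2 is known to impair the hem and the hippocampus. Dmrta2 was at 6.39, 5.14, 8.22 and 3.98 CPM in untreated C and at 7.39, 2.88 and 4.04 CPM in M, with overlapping groups (log2 fold change -0.38, SE 0.34, adjusted p = 0.64). Among vehicle libraries Dmrta2 was at 16.6, 13.7, 13.9 and 14.8 CPM in WT and at 8.93, 19.1, 7.67 and 11.7 CPM in dcKO. As for Lhx2 and Emx1, replicate 2 stood above and the other dcKO libraries below the WT range (-0.31, SE 0.23, adjusted p = 0.78). With the inhibitor it was at 14.7, 12.2, 9.82 and 12.6 CPM, within the dcKO vehicle range, a difference of 0.05 (SE 0.24, adjusted p = 0.94).

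Dmrt3 was low, at 1.85 to 3.66 CPM in untreated C, 1.82 to 3.61 CPM in M, 2.48 to 3.63 CPM in WT vehicle, 1.96 to 4.63 CPM in dcKO vehicle and 2.39 to 3.04 CPM with the inhibitor. Its groups overlapped in all 4 comparisons, and its log2 fold changes lay between -0.26 and -0.04. Dmrta1 was the lowest of the 10 and differed the other way from Dmrta2. It was at 0.798, 0.886, 1.25 and 1.04 CPM in untreated C and at 1.01, 1.78 and 2.1 CPM in M, where the libraries other than M replicate 2 stood above all controls (log2 fold change 0.76, SE 0.28, adjusted p = 0.23). Without M replicate 2 it was 0.95 (SE 0.25, adjusted p = 0.031). In the vehicle experiment Dmrta1 was at 0.614, 1.13, 1.41 and 0.697 CPM in WT, and every dcKO vehicle library, at 0.871 to 1.35 CPM, lay within that range (0.40, SE 0.29, adjusted p = 0.77). With the inhibitor it was at 1.02 to 1.75 CPM, a log2 difference of 0.65 from WT (SE 0.29, adjusted p = 0.23).

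Nr2f1, the nuclear receptor COUP-TFI that sets caudal sensory areas, had higher values in most dcKO libraries that were untreated or under vehicle. It was at 188, 191, 207 and 192 CPM in untreated C and at 209, 255 and 248 CPM in M, so all M libraries were above all controls, M replicate 2 by the least. The sum of 5 radial glia markers was likewise at 999, 1057 and 1100.5 CPM in M replicates 2 to 4 and at 865 to 937 CPM in C, and at 925 to 1052 CPM in dcKO vehicle, lowest in replicate 2, and 806 to 903 CPM in WT vehicle, and its part in the result was not tested. The log2 fold change was 0.29 (SE 0.08, unadjusted p = 0.0036, adjusted p = 0.15) in edgeR and 0.29 in DESeq2 (adjusted p = 0.044), where DESeq2 called 2.04% of all genes, 0.952% higher. Without M replicate 2 it was 0.37 (SE 0.06, adjusted p = 0.0025) in edgeR. Among vehicle libraries Nr2f1 was at 247, 241, 256 and 248.5 CPM in WT and at 279, 240.3, 306 and 304 CPM in dcKO. Here replicate 2 stood below and the other dcKO libraries above all WT libraries (0.19, SE 0.09, adjusted p = 0.56). With the inhibitor it was at 222, 244, 266 and 257 CPM, on both sides of the WT range. That was -0.19 from dcKO vehicle (SE 0.09, adjusted p = 0.34) and 0.00 from WT (SE 0.09, adjusted p = 0.99). The sum of the 5 radial glia markers did not follow Nr2f1 there. With the inhibitor it was at 956 to 1331 CPM, above every WT vehicle library. The antisense transcript A830082K12Rik overlaps Nr2f1 and was at 23.9 to 31.1 CPM in untreated and at 29.9 to 67.2 CPM in treated libraries, without a test that passed.

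Nr2f2, the related receptor COUP-TFII, is also known in interneurons of the caudal ganglionic eminence. It was at 132, 117, 127 and 166 CPM in untreated C and at 110.4, 165 and 174 CPM in M (log2 fold change 0.15, SE 0.17, adjusted p = 0.71). With vehicle, Nr2f2 was at 94.2, 127, 153 and 144 CPM in WT and at 115, 90.4, 162 and 164 CPM in dcKO, with overlapping groups (0.04, SE 0.20, adjusted p = 0.99). With the inhibitor it was at 81.1, 125, 90.3 and 90.4 CPM. That was 0.46 lower than dcKO vehicle on the log2 scale, the log2 fold change being -0.46 (SE 0.20, unadjusted p = 0.042, adjusted p = 0.30), and the groups overlapped. Inhibitor replicates 1, 3 and 4, dcKO vehicle replicate 2 and WT replicate 1 had the lower levels. The sum of 8 GABAergic interneuron markers was at 619 to 848 CPM with the inhibitor, at 380.1 to 708 CPM in dcKO vehicle and at 468 to 565 CPM in WT vehicle, and its part in the Nr2f2 level was not tested. Between inhibitor and WT libraries 4 of those 8 markers were higher at an unadjusted p under 0.01, where 3.01% of all genes were, and between inhibitor and dcKO vehicle 1 of 8 was, where 2.44% were.

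Prox1, a homeobox factor of dentate granule neurons, was at 62.8, 63.0, 49.0 and 70.6 CPM in untreated C and at 65.8, 60.2 and 49.9 CPM in M, inside the control range (log2 fold change -0.07, SE 0.13, adjusted p = 0.85). In the vehicle experiment it was at 41.9, 61.7, 50.2 and 56.6 CPM in WT and at 45.1, 49.3, 53.6 and 43.0 CPM in dcKO, again inside the range (-0.14, SE 0.14, adjusted p = 0.90). With the inhibitor it was at 36, 51.9, 38.8 and 35.6 CPM. All inhibitor libraries other than replicate 2 stood below every dcKO vehicle and every WT library. The log2 fold change was -0.24 from dcKO vehicle (SE 0.14, adjusted p = 0.45) and -0.37 from WT (SE 0.15, adjusted p = 0.19). Without inhibitor replicate 2 the difference from WT was -0.52 (adjusted p = 0.033), where 8.74% of all genes passed, 5.35% lower.

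Zbtb20, a zinc finger repressor that specifies hippocampal pyramidal neurons, was at 345, 351, 389.5 and 431 CPM in untreated C and at 362, 290.4 and 272 CPM in M. M replicate 2 lay within the control range and the other M libraries below it, with a log2 fold change of -0.30 (SE 0.11, adjusted p = 0.25), and -0.43 (SE 0.09, adjusted p = 0.013) without replicate 2. In the vehicle experiment it was at 233, 342, 451 and 383 CPM in WT and at 247, 307, 279.8 and 267 CPM in dcKO. WT replicate 1 was the lowest of these libraries, so the groups overlapped (-0.35, SE 0.20, adjusted p = 0.63). With the inhibitor Zbtb20 was at 162, 301, 185 and 216 CPM, and replicates 1, 3 and 4 were below every other treated library. The log2 fold change was -0.70 from WT (SE 0.20, unadjusted p = 0.0038, adjusted p = 0.11) in edgeR, and -0.71 with an adjusted p of 0.031 in DESeq2, which called 2.34% of all genes, 1.32% lower. It was -0.86 (adjusted p = 0.044) without WT replicate 1, where 1.12% of all genes passed, 0.517% lower, and -0.91 (adjusted p = 0.016) without inhibitor replicate 2. From dcKO vehicle it was -0.35 (SE 0.20, adjusted p = 0.42). A same-strand gene inside Zbtb20, BC002163, was at 0.419, 4.31, 0.535 and 0.0797 CPM in inhibitor replicates 1 to 4 and at 3.47 to 6.06 CPM in every other library. The same inhibitor replicates 1, 3 and 4 were thus low for both, and the part of either in the other's count was not tested.

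The inhibitor libraries also differed in markers of other tissue. Ttr, the choroid plexus transport protein gene, was at 803, 147, 448 and 4.03 CPM in inhibitor replicates 1 to 4, and at 3.14 to 119.6 CPM in all other RNA-seq libraries, and 4 of 5 choroid plexus markers were higher than in dcKO vehicle at an unadjusted p under 0.01, where 2.44% of all genes were. The summed level of those 5 markers was 6.94 to 842 CPM with the inhibitor, 5.61 to 9.15 CPM in dcKO vehicle and 5.13 to 128 CPM in WT vehicle. Of 4 markers of ventral telencephalon and hypothalamus 2 were higher than in dcKO vehicle at that limit, among them Nkx2-1 at 4.42 to 22.8 CPM against 1.69 to 3.79 CPM. Inhibitor replicate 2, where Zbtb20 and Prox1 were near the dcKO vehicle level, had the highest Nkx2-1. In dcKO vehicle the sum of 5 pallial neuron markers was 1194 to 2252 CPM, with the highest value in replicate 2, and in WT vehicle it was 1839 to 2400 CPM. The part of these tissues in the levels of the 10 genes was not tested.

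**Figure D3:**
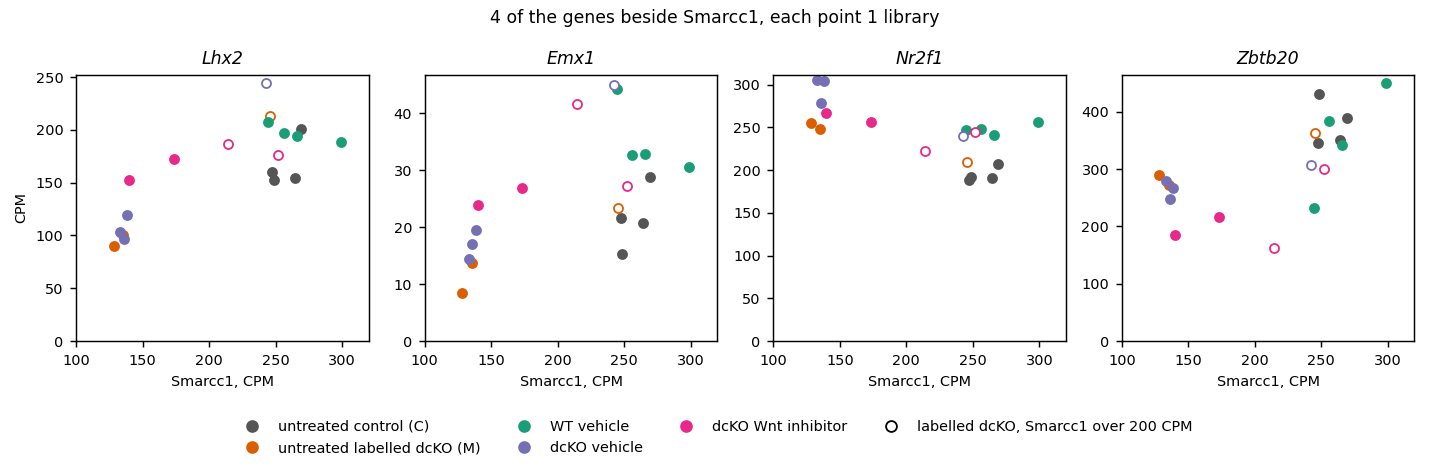
CPM of Lhx2, Emx1, Nr2f1 and Zbtb20 (y axes, from 0) against CPM of Smarcc1 (x axes) in 19 libraries, colored by group, with open circles for libraries labelled dcKO with Smarcc1 over 200 CPM. The 5 untreated and vehicle libraries with Smarcc1 at 128 to 138 CPM have Lhx2 at 90.1 to 119 CPM, and Lhx2 was at 152 CPM or more in all other libraries.

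The genes that surround these factors in the medial pallium were counted from lists. Of 14 hem signals and hem factors 12 were tested, and at an unadjusted p under 0.01 2 were higher in untreated M, 2 higher in dcKO vehicle and, with the inhibitor against dcKO vehicle, 2 higher and 1 lower. At that limit 2.66% of all genes were higher and 2.8% lower in untreated M, 1.56% and 1.29% in dcKO vehicle, 2.44% and 2.2% with the inhibitor against dcKO vehicle, and 3.01% and 3.71% with the inhibitor against WT. None of the list passed at an adjusted p under 0.05. The median log2 fold change of the list was 0.19, 0.14, 0.06 and 0.28 in these 4 comparisons, in the same order, against -0.00 to 0.01 for all genes. With the inhibitor against WT, 0 genes of the list were under an unadjusted p of 0.01. The ligand gene Wnt2b was at 3.52 to 5.23 CPM in untreated C and at 5.54, 12.3 and 12.9 CPM in M, with the lowest value in M replicate 2 (log2 fold change 1.25, SE 0.27, adjusted p = 0.12). Rspo2, which encodes an enhancer of Wnt signaling, was at 11.8 to 15.7 CPM in C and at 18.97, 31.7 and 26.6 CPM in M (0.95, SE 0.17, adjusted p = 0.093). Both had groups that did not overlap, also between dcKO vehicle and WT vehicle. Wnt2b was also the gene lower at that limit with the inhibitor, at 2.57, 4.99, 4.96 and 7.1 CPM against 11.6, 5.26, 11.1 and 11.5 CPM in dcKO vehicle, with overlapping groups (a fold of 0.501, SE 0.30 on the log2 scale, adjusted p = 0.19). Msx1, a hem homeobox gene, was higher at that limit with the inhibitor, at 3.47, 1.26, 3.16 and 1.87 CPM against 0.653 to 1.17 CPM in dcKO vehicle (1.36, SE 0.40, adjusted p = 0.19). In the same inhibitor replicates the 5 choroid plexus markers summed to 842, 158, 478 and 6.94 CPM. Their part in the Msx1 level was not tested. So Wnt2b and Rspo2 stood above, and Lhx2 and Emx1 stood below, the controls in the same M libraries, replicates 3 and 4. In M replicate 2, Wnt2b, Rspo2 and Lhx2 were all above every control, and Emx1 lay within the control range.

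Of 25 other pallial and area factors 24 were tested, and the list's median log2 fold change was within 0.06 of 0 in all 4 comparisons. At an unadjusted p under 0.01, 1 was higher in untreated M (Pax6, the factor of dorsal radial glia, at 63.6 to 73.7 CPM against 44.8 to 62.1 CPM, log2 fold change 0.45, SE 0.11, adjusted p = 0.15). In dcKO vehicle 2 were higher and 1 lower, the last being Lmo4, a LIM-only partner in area patterning, at 103, 174, 109 and 127 CPM against 156 to 197 CPM (-0.51, SE 0.14, adjusted p = 0.28). Fgf17, a ligand of the rostral patterning center, was among the higher, at 1.13, 0.534, 1.22 and 1.12 CPM against 0.307 to 0.744 CPM (1.21, SE 0.35, adjusted p = 0.29). Lmo4 was at 172 to 183 CPM with the inhibitor (0.47 from dcKO vehicle, SE 0.14, adjusted p = 0.19). Of 16 genes of hippocampal and dentate development, all tested, 1 was higher in untreated M at that limit and 1 lower with the inhibitor against WT. The former was Ephb1, a guidance receptor gene, at 143.6, 139.7 and 149 CPM in M against 113 to 130.4 CPM in C (0.25, SE 0.06, adjusted p = 0.14). The latter was Nrp2, a semaphorin receptor gene, at 178, 278, 149 and 223 CPM against 258 to 344 CPM (-0.57, SE 0.16, adjusted p = 0.11), low in inhibitor replicates 1 and 3 as Zbtb20 was. Of 12 relatives and partners of the 10 factors 11 were tested, and Zbtb16, a relative of Zbtb20, was lower at that limit in untreated M (-0.37, SE 0.11, adjusted p = 0.17) and with the inhibitor against WT (-0.69, SE 0.22, adjusted p = 0.14). Zbtb16 did not overlap between the groups in either comparison.

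Likeness was measured by Pearson's r of log2 CPM, centered on the mean of each experiment, over 19 libraries and among 15219 other genes, as a description, since the libraries share groups and, by number, deviations. The genes most like Lhx2 were Fezf2 (r = 0.98), Ezr (0.98) and Sstr2 (0.98). Those most like Emx1 were Efs (0.96), Mfap4 (0.95) and Itpk1 (0.95), and those most like Emx2 were Dpy19l1 (0.95), F2r (0.94) and Diaph3 (0.93). Dmrta2 was closest to Emx1 itself (0.95), then to Ccn2 (0.91) and Rcor2 (0.90). For Dmrta1 the closest were Hmga2 (0.83), Wdr76 (0.83) and Mnd1 (0.82), and for Dmrt3 Notch2 (0.87), 5330416C01Rik (0.85) and Fam53b (0.80). Nr2f1 was closest to Alpk1 (0.94), Tfcp2 (0.94) and Ap1ar (0.93), and Nr2f2 to Tex15 (0.96), Negr1 (0.93) and Pcdh19 (0.92). Prox1 was closest to Cadps (0.87), Gria3 (0.86) and Napb (0.86), and Zbtb20 to Usp31 (0.97) and Magi3 (0.96). Among the 10 genes, r was 0.94 between Lhx2 and Emx1, 0.90 between Lhx2 and Dmrta2 and 0.75 between Prox1 and Zbtb20. It was -0.79 between Lhx2 and Nr2f1.

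H3K27me3 was found at all 10 genes. Of 22220 regions shared by 2 or more of the 8 libraries, 21 overlapped one of the gene bodies or lay within 2000 bp of its start, and 6 of these 21 had a peak in all 8 libraries, against 4.71% of all regions. A region within 2000 bp of the start was present for 8 of 10 genes, against 25.7% of 14048 protein-coding genes. Dmrta1 and Zbtb20 lacked it at the annotated start. The Dmrta1 region lay farther inside the gene, over its RefSeq promoter window (3 C and 3 K libraries), and Zbtb20 had only a 576-bp region in 1 C and 1 K library. The libraries differed in depth after duplicate removal, from 12.3% to 66.5% of tags kept, with 2 C and 2 K libraries on each side of 30%. K replicate 4, with 32.8% kept, had the most peaks (46000). Its peaks covered 58.6 Mb, against 6.01 to 29.5 Mb in the other libraries. The length under peaks summed over the 10 genes ran from 5.46 to 76.3 kb in C and from 8.46 to 86.6 kb in K libraries, lowest in C replicate 3 and K replicate 2, which both kept under 30% of tags.

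**Figure D4:**
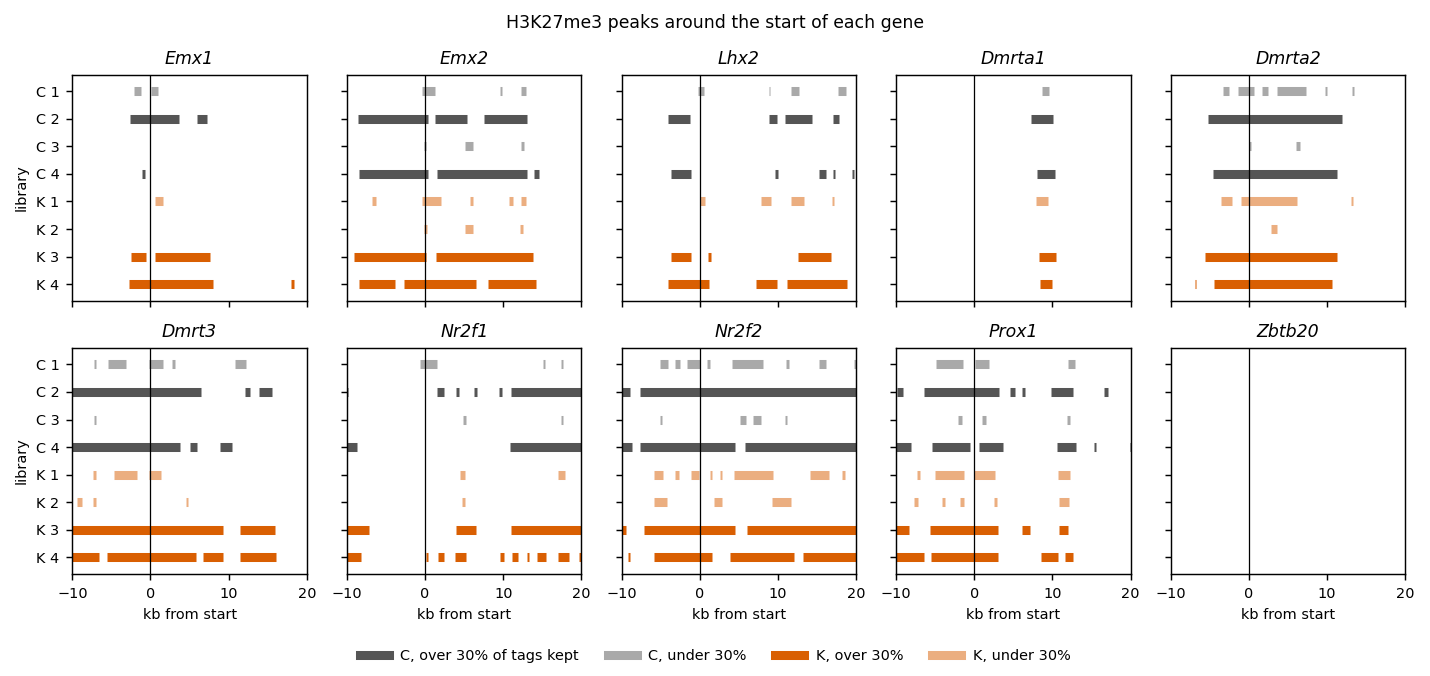
H3K27me3 peaks (bars) of the 8 libraries (rows) from 10 kb before to 20 kb after the annotated start of each gene, along its direction of transcription (x axes, kb), gray for C and orange for K, pale where under 30% of tags were kept. Peaks crossed the start of Emx2 in all 8 libraries, and no peak lay in this window at Zbtb20.

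The widest domains lay at Nr2f2, Emx2, Dmrt3 and Dmrta2. The region at chr7:70317983-70374377, 56395 bp around Nr2f2, had a highest fold enrichment over input of 9.77, 5.98, 7.08 and 5.45 in C replicates 1 to 4 and of 7.08, 5.84, 5.50 and 8.85 in K, and the groups overlapped (log2 difference K minus C of -0.04, SE 0.60, unadjusted p = 0.95 in limma). At Emx2 the region chr19:59449249-59472891 had 8.02, 4.04, 4.74 and 4.01 in C and 7.53, 4.89, 4.91 and 6.80 in K (0.25, SE 0.68, unadjusted p = 0.71). At Dmrt3, chr19:25597323-25620760 had 10.2, 5.59, 5.16 and 5.77 in C and 11.8, 5.89, 5.98 and 8.36 in K (0.26, SE 0.59, unadjusted p = 0.66). Dmrta2 lay wholly under peaks in C replicates 2 and 4 and in K replicates 3 and 4, and its region chr4:109972476-109989961 had 12.8, 5.38, 7.03 and 5.04 in C and 10.9, 3.47, 5.82 and 10.998 in K (-0.01, SE 0.59, unadjusted p = 0.99). In each domain the ranges of the C and K libraries overlapped.

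Prox1 had 6 regions, of which that over its start, chr1:190167053-190177152, had a fold enrichment of 9.33, 5.53, 4.07 and 5.84 in C and of 6.67, 8.18, 5.50 and 9.37 in K (0.30, SE 0.61, unadjusted p = 0.63). The lowest differences of the 21 regions were also at Prox1, in regions inside the gene with peaks in 3 C and 1 K library each, at chr1:190126892-190129789 (-0.83, SE 0.89, unadjusted p = 0.35) and chr1:190137189-190141199 (-0.89, SE 0.89, unadjusted p = 0.31). The Lhx2 regions were narrower and had peaks in 2 to 6 libraries. The longest, chr2:38350137-38358158, 8022 bp inside the gene, had no peak in C replicate 3 and in K replicate 2 (0.11, SE 0.89, unadjusted p = 0.90). The Emx1 region chr6:85184681-85195478 (0.33, SE 0.90, unadjusted p = 0.71) and the Dmrta1 region chr4:89686743-89689954 (0.48, SE 0.78, unadjusted p = 0.54) lacked a peak in the same 2 libraries.

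Nr2f1 had the largest difference. Its region inside the gene, chr13:78193097-78195916, had peaks in C replicates 2 and 3 (3.97 and 7.20) and in K replicates 1 to 4 (6.55, 7.49, 3.70 and 5.95). The log2 difference was 1.31 (SE 0.85, unadjusted p = 0.12 in limma), with 1.23 among libraries that kept over 30% of tags and 1.38 among the others. The former class joins K replicate 4, which kept 32.8% of tags, with libraries that kept 61.5% to 66.5%. C replicates 1 and 4 had no peak in this region and were set to a fold enrichment of 1. C replicate 4 is in the former class and C replicate 1 in the other. The C values with a peak lay within the K range, so the difference rests on the C libraries without a peak. Nr2f1 RNA was higher in M than in C libraries, and the RNA and the mark were measured in different samples. Over its start, Nr2f1 had a region in 2 C and 1 K libraries only. In all, 14 of the 21 regions (66.7%) had a higher mean in K, against 59.8% of all regions, and 0 of 21 were under an unadjusted p of 0.05 in limma. Over all regions, 0.009% were under an unadjusted p of 0.01 and 0% passed at an adjusted p under 0.05. A library without a peak was set to a fold enrichment of 1, so differences weaker than the peak limit were not detectable, and the K label cannot be checked against Smarcc1 in these libraries.

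**Figure D5:**
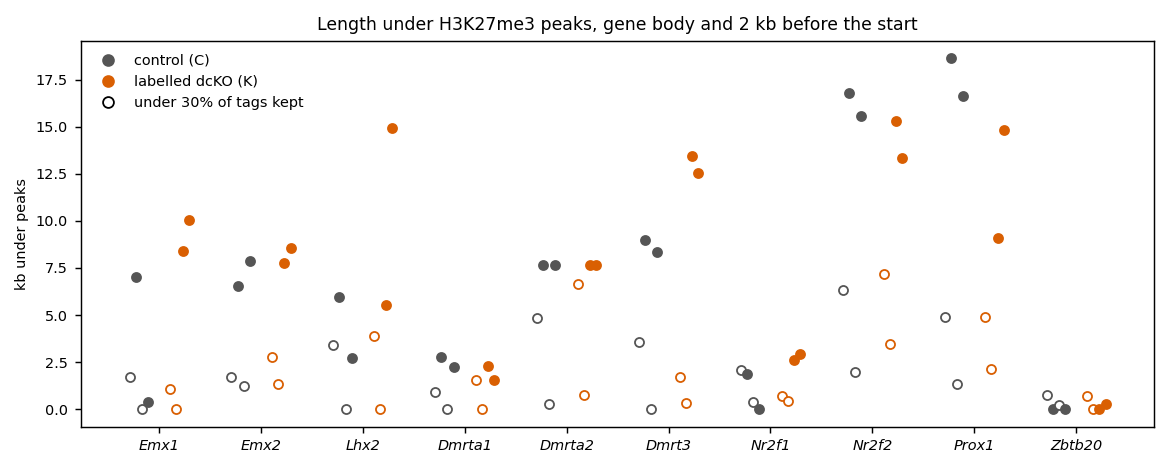
Length under H3K27me3 peaks in kb (y axis) in the gene body and 2 kb before the start of each gene (x axis), with a point per library, gray for C and orange for K, open where under 30% of tags were kept. The C and K ranges overlapped at every gene, and the lowest points at most genes are open.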

How the data were processed

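RNA-seq of 19 libraries and H3K27me3 ChIP-seq of 8 libraries were analysed. STAR alignment to mm10 and counting by featureCounts were done by the authors, who deposited raw gene counts from an unstranded kit, with Ensembl identifiers. Their H3K27me3 peaks came from MACS2 in broad mode (q-value up to 0.1), called for each library with all inputs of its group as background. For every peak, the deposited lists hold its fold enrichment (a ratio to input), its pileup (signal height in tags) and a q-value as -log10, and the authors' tag totals stand in the file headers. The submitters' processing notes also name MACS2 and mm10. Reads at the same position were counted one time by the peak caller, so tags kept can be far below the total. The annotation used for counting is not given in the sources used here.

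Counts were fitted with edgeR 4.0.16 (R 4.3.3; TMM, filterByExpr, robust quasi-likelihood test), the 7 untreated libraries by themselves, the 12 treated libraries together, and all 19 for the difference between experiments. Adjusted p-values are Benjamini-Hochberg values over all genes tested. All treated comparisons share groups. CPM used TMM library sizes. Peaks were merged, regions shared by 2 or more libraries were kept, and log2 of the highest fold enrichment (1 without a peak) was tested with limma 3.58.1. Regions and exon lengths used GENCODE M21 (GRCm38). The fits were tested on simulated data. No 2 replicates of a group agreed within counting noise. The untreated and ChIP-seq samples were littermate embryos by the study's methods. No source used here says so of the treated replicates, whose spread may be technical in part.

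The 10 genes and the lists were chosen with earlier results of these data known. Named are the 10 genes, Smarcc1 and Smarcc2, the called genes of each list (at most 4, or the 2 with the smallest p where none was called), and the 3 genes most like each of the 10, of which 1 is not reported here. BC002163, A830082K12Rik, Emx2os, Ttr and Nkx2-1 were named after their values were seen. Alternatives were DESeq2 1.42.0 and its size factors, no filter, a replicate block, fits of only the 2 groups compared, and each library left out. The peak alternatives were q-values under 0.01, 3 libraries, an overlap of 200 bp, the pileup, centring, starts only, the block and each library left out. Leaving out all libraries labelled dcKO with Smarcc1 over 200 CPM was added after the data were seen.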

Additional observations from a re-analysis of the deposited data

Results flagged for a closer look

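In groups of 4 libraries, a value was singled out where its gap to the nearest other value as a share of the range of the group exceeded Dixon's 95% critical value, which chance gives in about 1 of 20 groups. Of 68 groups of values 9 had such a value. Among dcKO vehicle libraries, replicate 2 stood apart with 242.5 CPM of Smarcc1, 691.8 CPM of Smarcc2, 244.8 CPM of Lhx2 and 44.9 CPM of Emx1, all the highest of their group, so 4 of the 9 values belong to this library. Dmrta1 was lowest in dcKO vehicle replicate 3, at 0.871 CPM. Emx1 was highest in WT vehicle replicate 1, at 44.1 CPM, and Lhx2 was highest in untreated C replicate 3, at 201 CPM. Emx2 was lowest in inhibitor replicate 1, at 23.1 CPM, in a group that otherwise ran from 24.6 to 24.7 CPM. The length under H3K27me3 peaks at Dmrta2 was lowest in K replicate 2, at 0.755 kb.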

How the results depend on the processing

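The number of the 10 genes at an adjusted p under 0.05, 0 in every comparison, became 1 in the untreated comparison and 1 between inhibitor and WT with DESeq2. Without the libraries labelled dcKO that had Smarcc1 over 200 CPM it became 3 (vehicle), 1 (inhibitor against dcKO vehicle) and 1 (inhibitor against WT), and the number at an unadjusted p under 0.01 became 4, 3 and 1. With the replicate block that number was 0 untreated and 2 between inhibitor and WT, against 1 and 1, and it was 0 between inhibitor and WT with only the 2 groups compared. The block changed no other count. With each library left out the number at an adjusted p under 0.05 ran from 0 to 5 (untreated, 5 without M replicate 2), 0 to 2 (vehicle, 2 without replicate 2), 0 to 1 (inhibitor against dcKO vehicle) and 0 to 2 (inhibitor against WT). At an unadjusted p under 0.01 it ran from 0 to 6, 0 to 3, 0 to 3 and 0 to 2. The cause was not tested. Within each data set, deviations from group means were compared between same-numbered libraries of different groups. Their correlation was -0.31 to -0.03 (untreated), -0.18 to 0.40 (treated) and -0.32 to 0.58 (H3K27me3), so the number was not taken to pair them.

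The log2 fold change with each library left out ran from -0.37 to 0.11 for Dmrt3 and -0.16 to 0.039 for Prox1 (untreated), from -0.31 to 0.12 for Dmrt3 and -0.088 to 0.18 for Nr2f2 (vehicle), from -0.16 to 0.13 for Emx2, -0.11 to 0.38 for Dmrta2 and -0.39 to 0.048 for Dmrt3 (inhibitor against dcKO vehicle), and from -0.031 to 0.045 for Nr2f1 (inhibitor against WT). Without all libraries with Smarcc1 over 200 CPM, Emx2 was at 0.16 (inhibitor against dcKO vehicle) and Nr2f1 at 0.077 (inhibitor against WT), and with only the 2 groups compared Nr2f1 was at 0.00621. For H3K27me3 the range was -0.058 to 0.28 at Zbtb20, -0.41 to 0.67 at Lhx2, -0.13 to 1.26 at Dmrta1, -0.22 to 0.33 at Dmrta2, -0.13 to 0.89 at Emx1 and -0.17 to 0.13 at Nr2f2, and the pileup gave -0.000813 at Lhx2. Dmrta1 and Dmrt3 were counted at 0.614 to 4.63 CPM, so their values rest on few reads.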
